A study of Mus musculus with 18 samples.

Results

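The 10 genes described here form the core of cytokine signalling through Janus kinases: the inhibitors Socs1, Socs2, Socs3 and Cish, the transcription factors Stat3, Stat5a and Stat5b, and the kinases Jak1, Jak2 and Jak3. They were taken from a list of names, chosen with earlier results of these data known. Every region of the deposited methylation tables that overlapped a gene body (GENCODE, mouse genome mm10) or the 5 kb to either side was counted as theirs. By this rule the 10 genes, of 21951 protein-coding genes, held 184 of the 411770 listed regions in CD11b+ and 231 of 553467 in CD4+ cells. Because Stat5b, Stat5a and Stat3 lie side by side on chromosome 11, 8 regions in each table fell in a pair of windows and were counted once in totals.

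Cytokine receptors without kinase activity of their own hold a JAK at their inner side. When a cytokine joins the receptor chains, the JAKs phosphorylate each other, the receptor and then STAT proteins, which pair up, enter the nucleus and bind DNA. Suppressors of cytokine signalling (the SOCS proteins and Cish, the founding member) are induced by STATs and switch the pathway off again. In T cells, Jak3 with Jak1 serves the receptors that share the common gamma chain, and STAT5 carries the interleukin-2 signal, whereas in myeloid cells Jak2 serves receptors for growth factors such as GM-CSF and STAT3 serves interleukin-6, interleukin-10 and G-CSF.

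Whole-genome bisulfite sequencing, which reads the methylated share of each cytosine, was done on splenic CD11b+ cells (myeloid cells, selected first with beads) and on CD4+ T cells (selected from the CD11b-depleted remainder). The mutant mice carried a heterozygous Dnmt3a R878H allele, the mouse form of a common human mutation in this de novo DNA methyltransferase, switched on in all blood cells by Vav1-iCre, and the controls, labelled Dnmt3a+/+ and called WT here, were matched for sex and age by the study's methods, which count mice with Cre and no mutant allele and mice with the allele and no Cre as controls. Each cell type and genotype had 4 mice, and the labels of the R878H/+ CD11b+ group hold 6 entries for its 4 mice. The entry titles also carry an S number from a lower or a higher series, whose meaning the labels do not state. In CD4+ cells all R878H/+ entries carry the higher series and most WT entries the lower. In CD11b+ cells only repeated R878H/+ entries carry the higher series. With group means only, the series could not be told apart from genotype in CD4+ cells.

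The tables give 1 mean per genotype and region, so no value below has an error between mice and no test across mice was possible. They give no sequencing depth per region, and the study's methods state a coverage for the sequencing without a value per mouse. The first group in each table was read as WT, since the tables do not name their groups. A hypomethylated differentially methylated region (DMR) is, after the study's criteria, a region with more than 10 CpGs, a mean more than 20 percentage points lower in R878H/+ and a deposited q-value below 0.05. The tables count CpG cytosines of both strands, and this count was used, although the sources do not say whether the limit of 10 meant cytosines or CG dinucleotides. Counting CG dinucleotides instead gave 2 genes (Socs2 and Jak3) with a DMR in CD11b+ and 6 in CD4+ cells. The q-value comes from the region caller metilene, which sets the cytosines' values of the groups against each other, and it is quoted here as the authors' value.

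The labelled cell types were set against WT methylation within 1 kb of marker gene starts. Myeloid markers were less methylated in CD11b+ cells (median over genes 73.3%, 5 of 6 genes listed) than in CD4+ cells (88.5%, 6 of 6), while the T cell markers did not allow a like comparison, since only Bcl11b was listed in both (3.93% in CD4+ and 3.33% in CD11b+ cells). Of the others, CD4+ cells listed Cd3e (27.4%) and Cd28 (34.8%), and CD11b+ cells listed Cd4 (66.3%) and Lck (65.0%). At Spi1, a defining myeloid factor, the medians were 42.6% in CD11b+ and 90.0% in CD4+ cells, while Itgam, the gene for CD11b itself, had 79.4% and 81.9% and does not separate them. The 4 B cell markers had a median of 44.6% in CD11b+ and 61.6% in CD4+ cells (3 listed), and whether other cells in the CD11b+ selection bear on the values below was not tested. Listed regions need not be the part of a promoter that changes with expression, and Cd4 itself was not listed in CD4+ cells within 1 kb of a start.

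Methylation at the JAK, STAT and SOCS genes was lower in R878H/+ cells nearly everywhere it was listed. The R878H/+ mean was below the WT mean in 166 of 184 regions (90.2%) in CD11b+ and in 218 of 231 (94.4%) in CD4+ cells, beside 93.4% and 95.5% of all listed regions. The median difference, WT minus R878H/+, was 8.61 percentage points in CD11b+ and 8.63 in CD4+ cells, and over all listed regions it was 6.55 and 6.85 points. Differences above 20 points were seen in 12.5% of the members' regions in CD11b+ and 15.6% in CD4+ cells, where all regions gave 7.01% and 6.23%.

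More of the genes were called in CD4+ than in CD11b+ cells, by a margin that depended on the q-value limit. In CD4+ cells 6 of the 10 genes held a hypomethylated DMR (Socs2, Socs3, Cish, Stat3, Jak2 and Jak3, with 8 DMRs in all), while 11.8% of the 18459 protein-coding genes with a region that could be called held one within 5 kb, and 0.665% of all listed regions were hypomethylated DMRs. In CD11b+ cells 1 of the 10 genes, Jak3, held a DMR (1 of 184 regions), with 8.88% of 17479 genes and 0.576% of all listed regions as the background. The genes were chosen with earlier results of these data known, so these counts beside the background are a description. The members had more regions that could be called than other genes, a median of 12.5 regions with more than 10 cytosines per gene in CD4+ cells against 5 over all genes, and 6.5 against 4 in CD11b+ cells. No member held a hypermethylated DMR in either cell type, and such calls were made at 0.0126% of all listed regions in CD11b+ and 0.000542% in CD4+ cells. Socs1, Stat5a, Stat5b and Jak1 had no DMR in either cell type. Without a q-value limit the counts were 6 genes (12 DMRs) in CD11b+ and 8 genes (16 DMRs) in CD4+ cells, and with 10 or more cytosines they were 3 and 6 genes. Whether the difference between 6 and 1 genes exceeds the variation between mice could not be tested.

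**Figure D1:**
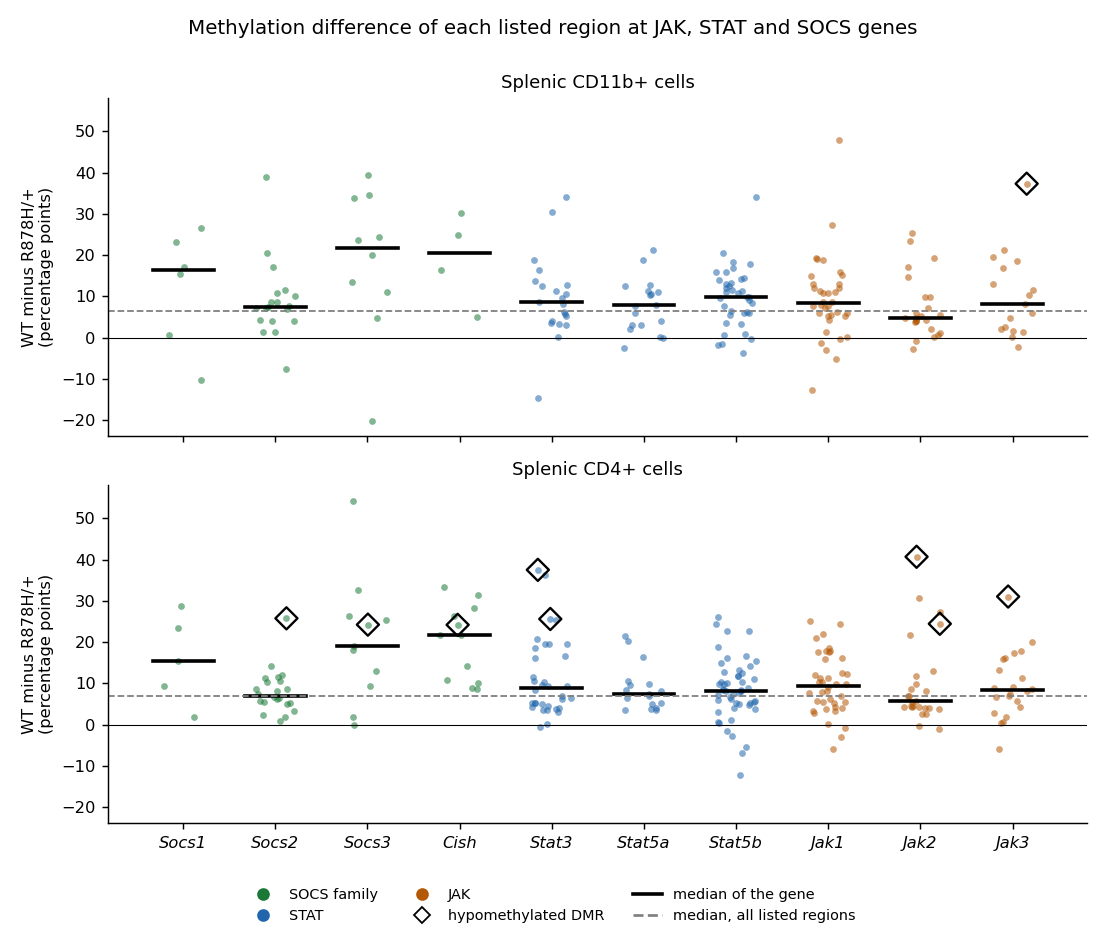
Each point is 1 listed region at a JAK, STAT or SOCS gene, and its height is the WT mean minus the R878H/+ mean in percentage points, for CD11b+ cells (top) and CD4+ cells (bottom). Black bars are gene medians, diamonds mark hypomethylated DMRs, and the dashed line is the median of all listed regions (6.55 and 6.85). The bars of Socs1, Socs3 and Cish lie highest in both panels, and 8 diamonds stand in the lower panel against 1 in the upper.

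The inhibitors Socs1, Socs3 and Cish had the largest median differences of the 10 genes in both cell types. Socs3, the inhibitor of signalling through the interleukin-6 and G-CSF receptors, had a median difference of 21.8 points over 10 regions in CD11b+ and 19.0 points over 11 regions in CD4+ cells. For Cish, an inhibitor of STAT5 signalling, the medians were 20.6 points (4 regions) and 21.6 points (12 regions), and for Socs1, the inhibitor of interferon and interleukin-2 family signals, 16.3 (6 regions) and 15.3 points (5 regions). Over the 3 genes together 10 of 20 regions in CD11b+ and 14 of 28 in CD4+ cells differed by more than 20 points. The group was put together after these medians were seen, so its values are a description. Socs2, the inhibitor of growth hormone signalling, had medians of 7.39 and 7.02 points, near those of all regions.

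The 3 genes also had less methylation in WT cells than most of the genome, with a median of 55.1% in CD11b+ and 73.5% in CD4+ cells, whereas all listed regions had 88.9% and 89.9%. The size of the difference depended on the WT level: over all regions the median difference was 0.289 points in CD11b+ cells where WT methylation was under 10%, 16.2 points at 50 to 60% and 4.85 points at 90% and above, and in CD4+ cells it was 1.05, 15.4 and 5.17 points. Set against the median of all regions in the same 10-point range of WT methylation, 15 of the 20 regions of Socs1, Socs3 and Cish in CD11b+ and 26 of 28 in CD4+ cells had the larger difference, by a median of 4.93 and 9.07 points. Since the 3 genes were grouped for their large median differences, that choice favoured this outcome, and the counts are a description only. For all members the same comparison gave 103 of 184 regions and 142 of 231, with a median excess of 0.646 and 1.22 points. The median excess was 2.53 and 2.77 points for the whole SOCS family, Socs2 included, and 0.686 and 2.625 points for Socs1 alone. It was 0.923 and 1.16 points for the STATs, and 0.296 and 0.416 points for the JAKs.

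**Figure D2:**
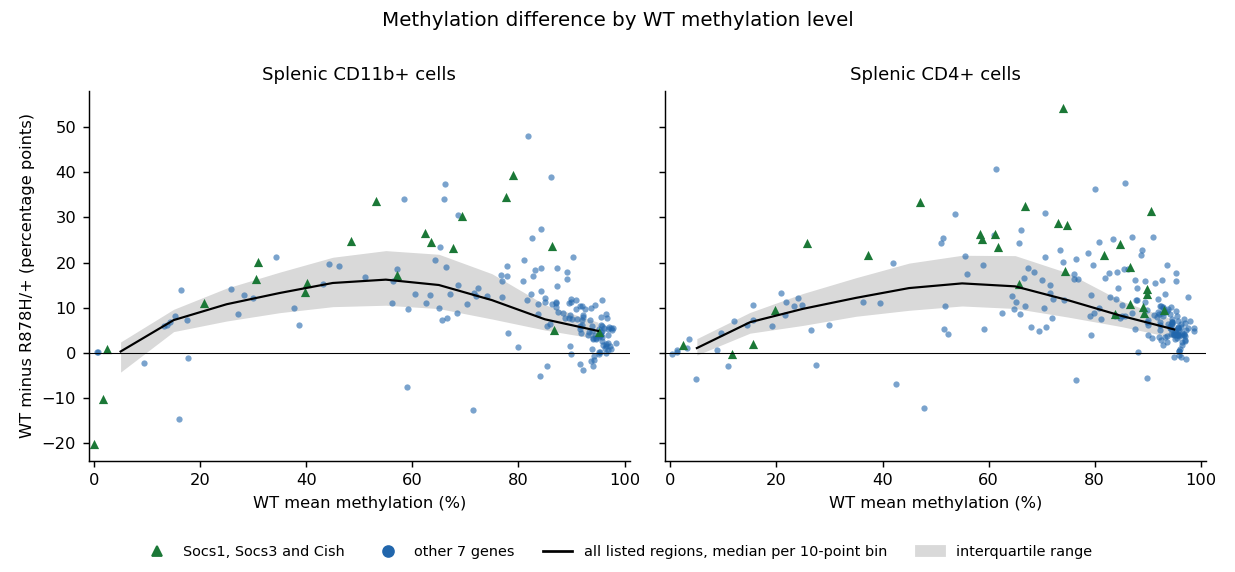
The WT mean methylation of each region (horizontal axis, percent) is plotted against the WT minus R878H/+ difference (vertical axis, percentage points) in CD11b+ (left) and CD4+ cells (right). The black line and grey band are the median and interquartile range of all listed regions per 10-point range, triangles are regions of Socs1, Socs3 and Cish and circles are those of the other 7 genes. Most triangles lie above the line, 15 of 20 on the left and 26 of 28 on the right, for genes that were grouped after their large differences were seen.

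Socs3 (chr11:117966079-117970047, minus strand) showed its DMR inside the coding exon. In CD4+ cells the region chr11:117967981-117968143, with 26 cytosines, had a WT mean of 25.8% and an R878H/+ mean of 1.57%, a difference of 24.2 points with a q-value of 7.8e-14. The next region towards the end of the same exon, chr11:117967759-117967967, went from 74.0% in WT to 19.7% in R878H/+ (q-value 0.01). Its difference of 54.3 points was the largest at any member in either cell type, but it held 10 cytosines and so missed the criterion of more than 10. The sequences of this DMR and of the region with the largest difference beside it are printed on the strand of the gene with each CG in capitals.
Socs3 coding exon, DMR: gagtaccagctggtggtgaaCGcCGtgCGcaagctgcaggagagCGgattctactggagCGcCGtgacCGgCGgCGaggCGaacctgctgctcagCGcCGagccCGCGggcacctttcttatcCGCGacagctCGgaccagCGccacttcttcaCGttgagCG
Socs3 coding exon, adjoining region: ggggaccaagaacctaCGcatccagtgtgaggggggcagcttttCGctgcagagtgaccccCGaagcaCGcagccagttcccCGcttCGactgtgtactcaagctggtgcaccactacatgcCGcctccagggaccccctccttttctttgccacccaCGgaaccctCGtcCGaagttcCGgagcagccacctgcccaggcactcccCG
The DMR has 20 CG in 163 bases and the adjoining region 12 in 209, and the region poorer in CpG had the higher WT methylation.

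In CD11b+ cells the end of the same exon was also lower in R878H/+. The region chr11:117967461-117967967, which reaches into the 3' UTR, had 79.0% in WT and 39.5% in R878H/+, but its q-value was 1, although it held 18 cytosines and differed by 39.5 points. A neighbouring stretch of 13 cytosines in the coding exon had 39.7% in WT and 26.2% in R878H/+. Outside the gene body, Socs3 had differences of 34.6 and 33.8 points in regions downstream in CD11b+ cells (77.7% to 43.1%, and 53.1% to 19.4% with a q-value of 0.29), and 32.6 points upstream in CD4+ cells (66.8% to 34.2%, q-value 1). In CD4+ cells the region of more than 10 cytosines with the largest difference was chr11:117965213-117966927, over the 3' UTR and beyond, with 58.8% and 33.5% (q-value 1). A further CD11b+ DMR lay 5345 bases upstream of the gene, just beyond the 5 kb limit, with 83.5% in WT and 39.8% in R878H/+ (chr11:117975392-117975689, 15 cytosines, q-value 2.4e-05).

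The start of Socs3 behaved differently in the group means. In CD11b+ cells the listed region nearest the start, chr11:117968810-117968931 in the 5' UTR exon with 10 cytosines, had 0% in WT and 20.2% in R878H/+, a gain of 20.2 points with a q-value of 1. In CD4+ cells the nearest listed region, chr11:117968200-117968721, had 2.46% and 0.654%. It lies 465 bases from the start and does not overlap the CD11b+ region. No CD4+ region was listed at the place of the gain, so the cell types cannot be compared there.

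Socs1 (chr16:10782240-10785536, minus strand) showed the same kind of gain in CD11b+ cells. Its coding exon region chr16:10784529-10784613, 923 bases from the start, had 1.77% in WT and 12.1% in R878H/+ (13 cytosines, q-value 1). Its sequence is printed on the strand of the gene with each CG in capitals, since it is the densest in CpG of the stretches shown.
Socs1 coding exon, region with higher methylation in R878H/+: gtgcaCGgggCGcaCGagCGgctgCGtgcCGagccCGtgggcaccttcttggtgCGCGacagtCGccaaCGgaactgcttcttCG
It has 12 CG in 85 bases. Of all listed CD11b+ regions with a WT mean under 10%, 17.4% gained more than 10 points (1467 of 8415), and in CD4+ cells 0.586% did, so these gains at Socs1 and Socs3 are of a kind common in the CD11b+ table. Elsewhere Socs1 was lower in R878H/+: the upstream region with the largest difference among those with more than 10 cytosines had 67.6% in WT and 44.4% in R878H/+ in CD11b+ (chr16:10787141-10787763) and 73.1% and 44.35% in CD4+ cells (chr16:10787142-10788215), differences of 23.2 and 28.8 points. Both had a q-value of 1, and the CD4+ region also overlapped the gene Tnp2, so it cannot be assigned to Socs1 alone.

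Cish (chr9:107296026-107302784, plus strand) carried its DMR in the later part of the gene body. The region chr9:107300076-107300572, with 22 cytosines over coding exons and 3' UTR, had 84.8% in WT and 60.6% in R878H/+ in CD4+ cells (q-value 0.0025). In all, 7 of the 12 Cish regions of CD4+ cells differed by more than 20 points, among them 47.1% to 13.7% downstream of the gene (chr9:107305798-107306266, 10 cytosines), and the region at the same place in CD11b+ cells had 48.4% and 23.5%. Among regions with more than 10 cytosines the largest difference was 28.2 points downstream in CD4+ cells (74.7% to 46.5%, chr9:107303330-107303833), and the only such region of CD11b+ cells, upstream, had 86.7% and 81.5%. The intron near an annotated start was partly methylated in WT in both cell types. It had 30.5% in WT and 14.2% in R878H/+ in CD11b+ (chr9:107297646-107298171) and 37.3% and 15.7% in CD4+ cells (chr9:107297646-107298732).

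STAT proteins bind the palindrome TTCNNNGAA, so the members' DMRs and start regions were searched for these letters, which read the same on both strands and overlap no other motif searched. The Cish intron region of CD4+ cells held 2 matches and that of CD11b+ cells 1, where 30.05% and 16.3% of all listed regions of like length (within 25%) held at least 1. No match was found in any of the 9 member DMRs, for which 5.07% to 45.5% of regions of like length held one. The surroundings of the first Cish match are printed on the plus strand with the match in capitals, because it was the only start region of a member that held the motif.
Cish intron, chr9:107297912-107298040: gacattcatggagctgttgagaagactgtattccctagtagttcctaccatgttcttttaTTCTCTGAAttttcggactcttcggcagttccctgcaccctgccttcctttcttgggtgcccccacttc

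Socs2 (chr10:95385362-95417180, minus strand) had lower methylation at 1 intronic place in both cell types. In CD4+ cells it was a DMR, chr10:95407426-95408311 with 16 cytosines, with 91.0% in WT and 65.2% in R878H/+ (difference 25.8 points, q-value 0.00088). The CD11b+ region inside it, chr10:95407677-95408216, had 86.2% in WT and 47.1% in R878H/+, a larger difference of 39.0 points with a q-value of 0.035, and it missed the call because it held 10 cytosines. The other Socs2 regions differed by at most 20.5 points in CD11b+ cells (64.3% to 43.9%, chr10:95397298-95398079) and by at most 14.3 points in CD4+ cells. No Socs2 region was listed within 1 kb of a start.

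**Figure D3:**
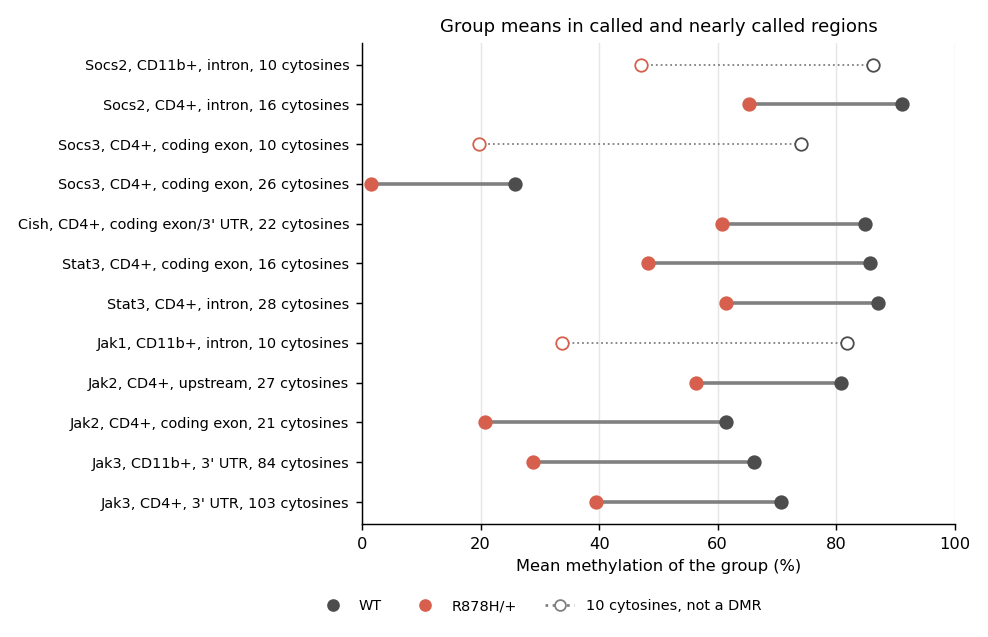
Group mean methylation (percent) in WT (grey) and R878H/+ (red) is shown for the 9 hypomethylated DMRs at JAK, STAT and SOCS genes (filled circles, solid lines) and the 3 regions that passed the q-value and the difference but held 10 cytosines (open circles, dotted lines). The place named is what the region touches in that gene. In every row the R878H/+ mean is to the left, from 1.57% (Socs3) to 65.2% (Socs2), and WT means run from 25.8% to 91.0%.

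Stat3 (chr11:100885098-100939540, minus strand), the transcription factor of interleukin-6 type cytokines, held 2 DMRs in CD4+ cells. The region chr11:100904802-100905489 over coding exons had 85.7% in WT and 48.2% in R878H/+ (16 cytosines, difference 37.5 points, q-value 0.0014). The intronic region chr11:100912381-100913030 had 87.0% and 61.4% (28 cytosines, difference 25.6 points, q-value 0.01). In CD11b+ cells the intronic region at the second of these places had 89.2% in WT and 72.8% in R878H/+, a difference of 16.4 points with a q-value of 0.12. Another intronic place was low in R878H/+ in both cell types without a call: it had 65.9% in WT and 31.7% in R878H/+ in CD11b+ (chr11:100929676-100930267, q-value 0.75) and 80.0% and 43.8% in CD4+ cells (q-value 0.53). Near the start, the CD11b+ table lists 63.4% in WT and 50.6% in R878H/+ (chr11:100940220-100940876). In 1 coding exon region of CD11b+ cells (chr11:100893444-100893776) the R878H/+ mean was the higher, 30.6% against 15.9% in WT.

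Neither STAT5 gene held a DMR. Stat5a (chr11:100859351-100885169, plus strand) and Stat5b (chr11:100780731-100850724, minus strand), near-identical factors for interleukin-2, interleukin-7 and growth hormone, had median differences of 7.85 and 9.83 points in CD11b+ and 7.47 and 8.26 points in CD4+ cells. At the start of Stat5a, the CD11b+ region chr11:100859215-100859935 had 34.3% in WT and 13.0% in R878H/+ (10 cytosines, q-value 1). The largest Stat5a difference in a CD11b+ region of more than 10 cytosines was just upstream, with 74.0% and 61.3% (chr11:100857651-100859046). In CD4+ cells the listed Stat5a region nearest a start had 15.6% and 4.96% (chr11:100861109-100861429). The Stat5b region nearest an annotated start, one inside the gene, had 30.02% and 17.9% in CD11b+ and 1.2% and 0.65% in CD4+ cells, and a region upstream of its 5' end had 16.4% and 2.38% in CD11b+ cells (chr11:100851147-100851484). The largest Stat5b difference was 34.2 points, in an intron in CD11b+ cells (58.5% to 24.3%, chr11:100846092-100846287, 10 cytosines, q-value 0.46), and in CD4+ cells it was 26.2 points (61.0% to 34.8%). Among Stat5b regions with more than 10 cytosines, the largest differences were 18.3 points in CD11b+ cells (83.1% to 64.8%, chr11:100831671-100832326) and 22.7 points in CD4+ cells (89% to 66.3%, chr11:100844916-100845040). Stat5b also held the largest gain at a member in CD4+ cells, 47.9% in WT and 60.1% in R878H/+ (chr11:100820875-100821500), whereas the place was 76.9% and 61.0% in CD11b+ cells.

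Jak3 (chr8:71676296-71690575, plus strand), the kinase of the common gamma chain receptors, was the only member called in both cell types. In CD11b+ cells the DMR chr8:71688761-71690390 had a WT mean of 66.1% and an R878H/+ mean of 28.8%, a difference of 37.3 points over 84 cytosines with a q-value of 8.9e-25. In CD4+ cells the DMR chr8:71688733-71690695 had 70.6% and 39.5%, a difference of 31.1 points over 103 cytosines with a q-value of 1.2e-18. By number of cytosines it ranked 4 among the 2370 hypomethylated DMRs of CD11b+ cells and 1 among the 3683 of CD4+ cells, where the medians were 19 and 20 cytosines. By size of the difference it ranked 890 and 2158, so it ranked high by its number of cytosines and not by the size of its difference. The DMR lies past the last coding exon of Jak3, touches the 3' UTR exon of the transcript that reaches furthest, and covers Insl3, a gene for a hormone of the testis that lies in the same stretch, so it cannot be assigned to Jak3 alone.

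The 300 bases with the most CpG sites among the stretches free of UTR sequence, where both DMRs overlap, are chr8:71689258-71689557, which take in the first coding exon of Insl3 and the intron after it, shown on the plus strand with each CG in capitals.
Jak3 and Insl3 DMR: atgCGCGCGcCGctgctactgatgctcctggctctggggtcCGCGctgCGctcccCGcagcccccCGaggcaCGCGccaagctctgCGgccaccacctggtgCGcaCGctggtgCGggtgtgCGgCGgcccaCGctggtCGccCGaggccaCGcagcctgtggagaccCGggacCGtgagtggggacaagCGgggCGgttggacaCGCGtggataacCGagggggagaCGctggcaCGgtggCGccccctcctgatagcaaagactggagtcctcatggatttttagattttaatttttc
This stretch has 31 CG, most of them in its first part. Upstream of it, Jak3 itself was unmethylated at its start in CD11b+ cells, with 0.577% in WT and 0.289% in R878H/+ (chr8:71676170-71676633), and the region before the start had 44.2% and 24.6% in CD11b+ and 41.9% and 21.9% in CD4+ cells. The intron region near an annotated start had 13.2% and 7.25% in CD11b+ and 20.8% and 7.58% in CD4+ cells. The other Jak3 regions between the start and the DMR differed by at most 21.2 points, the value of a coding exon region of CD11b+ cells with 90.2% in WT and 69.05% in R878H/+ (chr8:71681063-71681773, 10 cytosines), where the CD4+ region had 92.5% and 89.6%. In CD4+ cells the largest difference there was 17.8 points, in an intron with 95.2% and 77.5% (chr8:71685877-71685931).

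**Figure D4:**
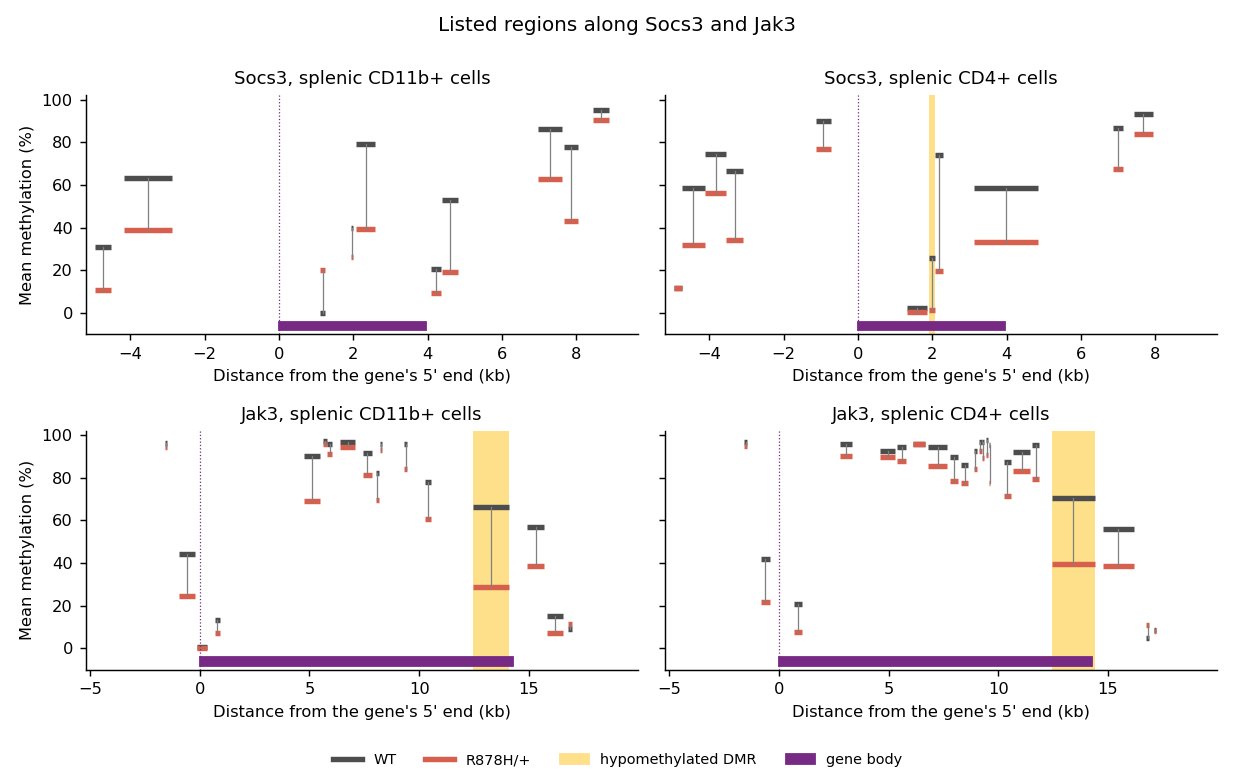
Listed regions along Socs3 (top) and Jak3 (bottom) are drawn by distance from the 5' end of the gene in kb, read in the direction of transcription, with mean methylation in percent as height, in CD11b+ (left) and CD4+ cells (right). Grey bars are WT, red bars R878H/+, yellow marks DMRs and purple the gene body. At Socs3 the CD11b+ region near the start is higher in R878H/+ (0% to 20.2%) while the later ones are lower, and at Jak3 the DMR over the end of the gene is seen in both cell types.

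Jak2 (chr19:29251828-29313080, plus strand), the kinase of the erythropoietin, thrombopoietin and GM-CSF receptors, held 2 DMRs in CD4+ cells. The region chr19:29271143-29271501, over a coding exon and its borders, had 61.4% in WT and 20.7% in R878H/+ (21 cytosines, q-value 1.1e-12), and its difference of 40.7 points was the largest among the members' DMRs. Its last 300 bases hold the most CpG sites and are shown on the plus strand with each CG in capitals.
Jak2 coding exon DMR, chr19:29271202-29271501: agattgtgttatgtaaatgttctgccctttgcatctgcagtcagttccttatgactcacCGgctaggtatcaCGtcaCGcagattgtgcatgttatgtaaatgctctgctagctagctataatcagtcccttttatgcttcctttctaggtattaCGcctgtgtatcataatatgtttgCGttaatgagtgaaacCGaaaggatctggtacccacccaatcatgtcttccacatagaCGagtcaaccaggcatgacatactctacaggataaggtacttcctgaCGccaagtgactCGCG
With 10 CG in 300 bases it is far poorer in CpG than the Jak3 and Socs3 stretches. The place had 46.2% in WT and 27.0% in R878H/+ in CD11b+ cells, a difference of 19.2 points, just under the limit, with a q-value of 1. The other Jak2 DMR lies 1191 bases upstream (chr19:29248896-29250637, 27 cytosines), with 80.8% and 56.4% in CD4+ cells and a q-value of 0.013. The CD11b+ region in its last part had 82.5% and 57.1% (difference 25.4 points, 14 cytosines, q-value 1). Differences above 20 points were found in 5 of 26 Jak2 regions in CD4+ (19.2%) and 2 of 24 in CD11b+ cells (8.33%), beside 6.23% and 7.01% of all listed regions. Among them was an intron place with 66.2% and 38.95% in CD4+ and 65.3% and 41.95% in CD11b+ cells (chr19:29270376-29270612). Most other Jak2 regions differed little, and its median differences of 4.74 points in CD11b+ and 5.64 in CD4+ cells were the lowest of the 10 genes. The CD4+ region nearest an annotated start had 12.0% in WT and 5% in R878H/+ (chr19:29253136-29253679). Another intron region close by was almost unmethylated in both genotypes and cell types (0.275% to 0.675%).

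Jak1 (chr4:101152367-101265282, minus strand), the kinase shared by interferon, interleukin-6 and common gamma chain receptors, had no DMR but held the largest difference at a member in CD11b+ cells. In the intronic region chr4:101192035-101192084, which spans 50 bases with 10 cytosines, the WT mean was 81.8% and the R878H/+ mean 33.8%, a difference of 48.03 points with a q-value of 8.9e-06. The longer CD4+ region from the same first base had 84.2% and 66.4%, a difference of 17.8 points (12 cytosines, q-value 1). Its sequence is shown on the minus strand, the strand of the gene, with each CG in capitals.
Jak1 intron: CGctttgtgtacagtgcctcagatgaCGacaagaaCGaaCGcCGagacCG
The 6 CG lie within these 50 bases. Among CD11b+ regions with more than 10 cytosines, the largest Jak1 difference was 19.3 points, with 77.9% and 58.6% (chr4:101179882-101180452). Median differences over Jak1 were 8.31 points in CD11b+ (36 regions) and 9.39 points in CD4+ cells (40 regions), and the region nearest the start had 84.97% in WT and 72.9% in R878H/+ in CD11b+ and 64.8% and 55% in CD4+ cells.

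Methylation was higher in R878H/+ in 18 of the 184 regions of CD11b+ cells and 13 of the 231 of CD4+ cells. Gains above 10 points were seen in 4 regions of CD11b+ cells, the start regions of Socs3 and Socs1 given above, the coding exon region of Stat3 and a Jak1 region with 71.4% in WT and 84.1% in R878H/+ (chr4:101175084-101175599), and in 1 region of CD4+ cells, the Stat5b intron. As a share, this was 2.17% and 0.433% of the members' regions, against 0.610% and 0.182% of all listed regions. By place, the members' regions within 1 kb of a start had median differences of 12.4 points in CD11b+ (12 regions) and 10.7 points in CD4+ cells (11 regions), those touching a coding exon 3.54 and 6.06 points, and those in introns alone 8.75 and 8.92 points. All listed regions within 1 kb of a start had 7.98 and 8.84 points, at a higher median WT level (64.85% and 72.2%) than the members' start regions (30.3% and 20.8%). Against all regions in the same 10-point range of WT methylation, the members' start regions had a median excess of 0.5075 and 1.16 points.

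At 71 places, spread over all 10 genes, the tables list a region in both cell types that overlaps by at least 50% of each. R878H/+ was lower in both cell types at 63 of them. Differences above 20 points were found at 6 places in both cell types, at 6 in CD11b+ cells alone and at 7 in CD4+ cells alone, and the medians were 11.1 points in CD11b+ and 9.79 in CD4+ cells. The WT means of the cell types lay within 10 points of each other at 49 places. WT CD11b+ cells were the more methylated by over 20 points at 6 places, among them the 3' UTR of Socs1 (57.1% against 15.7%), a Stat3 intron (68.5% against 29.9%) and a Jak1 intron (83.6% against 51.5%), and WT CD4+ cells at 1, upstream of Socs1 (61.8% against 40.2%). The CD11b+ region at that upstream place also overlapped Tnp2. At the Stat3 place, the cell type with the higher WT level also had the larger difference, 30.5 points in CD11b+ (chr11:100891258-100891940) and 6.28 in CD4+ cells. Both cell types were listed separately and no test of the difference between them could be made.

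**Figure D5:**
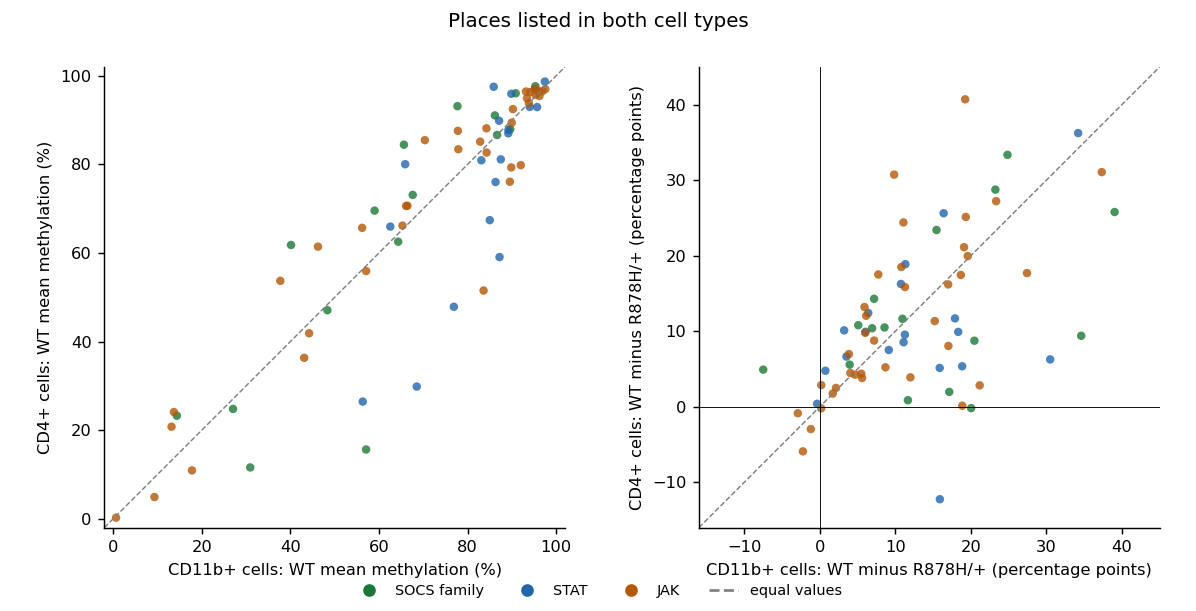
Each point is 1 of 71 places listed in both cell types. The left panel sets WT mean methylation (percent) in CD11b+ cells against that in CD4+ cells, and the right panel the WT minus R878H/+ difference (percentage points) likewise, with the dashed line for equal values. In the left panel 49 points lie within 10 points of the line, and in the right panel 63 points lie above 0 on both axes.

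The wider pathway was read from a list of 61 genes for other kinases and STATs, SOCS proteins, receptors, other inhibitors and targets, of which 59 had a region that could be called in each cell type. In CD11b+ cells 6 of the 59 (10.2%) held a hypomethylated DMR, beside 8.88% of all genes. In CD4+ cells it was 17 of 59 (28.8%), beside 11.8%. The list was chosen with earlier results of these data known, so these shares are a description. These genes had a median of 5 regions with more than 10 cytosines each in CD11b+ and 7 in CD4+ cells, where all genes had 4 and 5. No gene of the list held a hypermethylated DMR in either cell type. By group, the CD4+ calls fell on 2 of 5 kinases and STATs, 1 of 3 SOCS genes, 6 of 29 receptors, 2 of 11 other inhibitors and 6 of 11 targets, and the CD11b+ calls on 2 of 5, 0 of 4, 2 of 28, 0 of 11 and 2 of 11.

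The largest CD4+ difference of the list was at Il12rb1, a receptor chain for interleukin-12 and interleukin-23, with 80.0% in WT and 33.2% in R878H/+ (chr8:70816742-70817121, 37 cytosines). Ptpn1, a phosphatase that acts on JAKs, followed with 70.0% and 24.4% (chr2:167948762-167948852), Il15ra, the private chain of the interleukin-15 receptor, with 69.5% and 27.8%, and Bcl2l1, the survival factor Bcl-xL, with 85.6% and 45.8%. Il27ra, the receptor chain for interleukin-27, had 86.3% and 46.6% in CD4+ cells and 85.1% and 43.3% in CD11b+ cells. Il27ra, Il15ra, Stat6, Ccnd3 and Bcl6 were called in both cell types. The DMRs of the cell types overlapped except at Bcl6, where they lay apart (chr16:23980018-23980311 in CD11b+ and chr16:23993356-23994434 in CD4+ cells). In CD11b+ cells the largest difference was at Ccnd3, which encodes cyclin D3, with 75.1% and 31.8% (chr17:47517685-47518300, 21 cytosines). There Bcl6, a transcriptional repressor, had 56.4% and 15.2%, and Il15ra had 59.9% and 21.9%.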

How the data were processed

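The labels of 18 entries give a cell type and genotype for each, and 2 entries that repeat a replicate number were counted with their mouse. By their methods, the authors used BISCUIT for mapping the bisulfite reads (mm10) and metilene for finding regions. Versions, parameters and the minimum coverage are not given in the sources used here. The 2 deposited tables, 1 per cell type, hold per region a deposited mean methylation per genotype in percent, the number of CpG cytosines, a difference and deposited p-values and a q-value. Neither gives depth, and the number of columns with values of single samples is 0. The means of all regions with 10 cytosines are whole multiples of 1/40 of a percent, as 4 mice with whole percent values would give. Counts of cytosines exceeded the CG dinucleotides in 86.3% of CD11b+ and 92.4% of CD4+ regions and never exceeded 2 per CG, so both strands are counted.

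Positions count from 1 on mm10. All regions begin and end at a CG of the GRCm38.p6 sequence, from which all printed sequences were read. Genes came from GENCODE release M21, with 5 kb added to each side and starts taken to 1 kb. Differences were computed from the means. DMR calls followed the study's criteria, using the deposited q-values, and no test was added, since the tables hold no replicate values. Every DMR of a member was named, with its region of more than 10 cytosines and largest difference, and the listed region nearest its start within 1 kb. Of the pathway list, the 5 genes per cell type with the largest difference in a DMR were to be named, and 1 of them is not reported here. Any other region (a start or flank beside these, a 10-cytosine region, a gain, a place in both cell types) was chosen after its values were seen. The members and lists were chosen with earlier results of these data known. Window counts and calls were tested on simulated data. The alternatives were other q-value, difference and CpG limits, Benjamini-Hochberg adjustment of the deposited Mann-Whitney p-values, other windows, and weighting by CpGs. Limits of 10 or more CpGs and of more than 10 CG dinucleotides were added after seeing the data. Software was matplotlib 3.10.9, pysam 0.24.0, scipy 1.17.1, pandas 2.3.3 and numpy 2.4.6 under python 3.11.15.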

Additional observations from a re-analysis of the deposited data

How the results depend on the processing

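Of 74 alternatives to 10 values, 60 left the value within 1.5 times (counts and medians) or within its exact 95% binomial interval over regions (shares). The number of DMRs depended most on the q-value. Without a q-value limit the members held 12 DMRs at 6 genes in CD11b+ cells and 16 DMRs at 8 genes in CD4+ cells, and adjusting the deposited Mann-Whitney p-values by Benjamini-Hochberg gave the same counts, 12 DMRs at 6 genes and 16 DMRs at 8 genes; over all regions these limits raised the share called from 0.576% to 3.24% and from 0.665% to 3.08%. With a difference above 30 points, CD4+ cells had 3 DMRs at 3 genes (Stat3, Jak2 and Jak3). A window of 10 kb gave CD11b+ cells 2 DMRs at 2 genes (Socs3 and Jak3), and counting regions with 10 or more CpGs, an alternative chosen after seeing the data, gave them 3 DMRs at 3 genes (Socs2, Jak1 and Jak3). Counting CG dinucleotides of the sequence in place of cytosines, chosen likewise, gave 2 DMRs at 2 genes (Socs2 and Jak3) in CD11b+ cells and 9 DMRs at 6 genes in CD4+ cells, with 0.459% and 0.482% of all regions called. The count of hypermethylated DMRs was 0 under each alternative, and these alternatives are among the 60. Such calls were rare over all regions (0.0126% in CD11b+ and 0.000542% in CD4+ cells), so their unchanged counts say little about stability. The median difference ran from 8.27 to 9.70 points in CD11b+ cells and from 8.12 to 9.40 in CD4+ cells. No paired analysis was possible because the tables hold group means only, and for the same reason no mouse could be left out and no depth limit applied. The direction of every difference rests on reading the first group as WT.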
